A study of Homo sapiens with 60 samples.

Results

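The 36 genes described here encode heat shock chaperones, mostly of the cytosol and the mitochondria, together with co-chaperones and the transcription factor that governs many of them. They were taken by name from a list of chaperone families, not by any measured value, but with earlier results of these data known. Their Ensembl identifiers were found among the 60675 genes of the table. All 36 were among the 18396 genes that passed the filter on low counts. They comprise 3 HSP90 proteins, 6 HSP90 co-chaperones, 7 HSP70 proteins, 3 HSP110 proteins, 8 J proteins, 3 HSP70 adaptors, 3 small heat shock proteins, the 2 subunits of the mitochondrial chaperonin, and HSF1.

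The study profiled RNA from A549 cells, a human lung adenocarcinoma line of epithelial origin, after 24 h with plant extracts or with the solvent alone. The extracts came from 4 single herbs (Polygalae Radix, Aucklandiae Radix, Menthae Herba and Saposhnikoviae Radix) and 4 multi-herb formulas (Saengmaek-san, Guibi-tang, Soyo-san and Okbyeongpung-san), each at 3 doses. The high, medium and low doses were 380, 76 and 15.2 µg/mL of Polygalae Radix and 370, 74 and 14.8 µg/mL of Aucklandiae Radix. The other 6 extracts shared doses of 500, 100 and 20 µg/mL. Each dose had 1 library for Okbyeongpung-san, 2 for Polygalae Radix, Aucklandiae Radix and Soyo-san, and 3 for the remaining 4 extracts. The vehicle group held 3 libraries of cells given DMSO, at 0.1% in the sample labels and at 2% in the design text. For an extract that inhibited growth strongly, the submitters' design text ties the top dose to a fixed level of inhibition, so the high doses of Polygalae Radix and Aucklandiae Radix are not the same mass concentration as the others.

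Heat shock chaperones bind proteins that are unfolded or still folding. HSP70 proteins hold short hydrophobic stretches in a cycle driven by ATP, which J proteins start and exchange factors such as HSP110 and BAG proteins end, and clients such as kinases and steroid receptors then pass to HSP90 through the adaptor STIP1. Small heat shock proteins hold unfolded proteins without ATP, and in the mitochondrial matrix HSPA9, TRAP1 and the barrel built of HSPD1 and HSPE1 do the corresponding work. When unfolded protein accumulates, HSF1 is released from chaperones, forms trimers and binds heat shock elements, arrays of the unit GAA in alternating orientation, in front of many of these genes.

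The heat shock element is the sequence that many of these genes share, so the windows around their start sites were searched for it in the RefSeq promoter table (GRCh38.p14, 250 bases before to 50 bases after each start). The table held 45 windows for 31 of the 36 members. FKBP4, HSPA14, ST13, CRYAB and HSF1 were not matched. An array of 3 units, which reads GAA, TTC and GAA, or TTC, GAA and TTC on the other strand, each unit 2 free bases from the next, was present in a window of 7 members and in 15.6% of the member windows, against 0.49% of all 35116 windows. The shorter array of 2 units with the same spacing, GAA then TTC or TTC then GAA, reads alike on both strands and lies within every longer array. It was present in 17 members and 40% of their windows, against 13.5% of all windows. The following stretches of 30 bases are shown because they hold the arrays of 3 units before a start, whatever the size of the gene's change, and the shorter array of HSPA1A and HSPA1B, which are among the members lowered most below. The shorter arrays of other members, such as HSPA4L and HSPB1, are not shown. Capitals mark the matched array, and each stretch is written 5′ to 3′ on the strand of the gene.
HSP90AA1, chr14:102087111-102087140, minus strand: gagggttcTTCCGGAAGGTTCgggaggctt
HSP90AB1, chr6:44247770-44247799, plus strand: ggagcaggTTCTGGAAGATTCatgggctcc
HSP90AB1, chr6:44247823-44247852, plus strand: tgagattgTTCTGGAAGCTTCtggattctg
HSPA8, chr11:123062345-123062374, minus strand: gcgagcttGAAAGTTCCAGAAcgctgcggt
HSPA8, chr11:123062170-123062199, minus strand: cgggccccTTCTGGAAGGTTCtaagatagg
HSPD1, chr2:197500061-197500090, minus strand: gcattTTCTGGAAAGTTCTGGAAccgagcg
CHORDC1, chr11:90223083-90223112, minus strand: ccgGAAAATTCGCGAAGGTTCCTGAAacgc
DNAJB6, chr7:157336865-157336894, plus strand: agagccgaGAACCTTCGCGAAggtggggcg
HSPA1A, chr6:31815426-31815455, plus strand: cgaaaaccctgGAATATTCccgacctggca
HSPA1B, chr6:31827622-31827651, plus strand: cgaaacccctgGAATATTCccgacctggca

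The match of HSP90AA1 lay 88 to 76 bases before the start, and that of CHORDC1, where several units run on, lay 60 to 38 bases before it. DNAJA1, the last of the 7 members with an array of 3 units, had its match after the start. In HSPA1A and HSPA1B the array of 2 units lay 106 to 99 and 105 to 98 bases before the start. A match describes the letters of the window only.

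Totals of expected counts per library ran from 17113963 to 33363661, and the member of lowest level, DNAJA4, had as few as 5 in a library. The labels number the libraries of the extracts in sets that hold a pair of extracts each, and place the vehicle libraries in none of these sets. Separately, the libraries fell into 2 classes by the level of 1 gene, ENSG00000282955, with 38 libraries in class 1 and 22 in class 2; 9 of the groups held both classes. All vehicle and Soyo-san libraries were of class 2, and all Aucklandiae Radix and Menthae Herba libraries of class 1, so for these the class and the treatment cannot be told apart against vehicle. Within groups, 13 of the 36 members were higher and 8 lower in class 2, where 47.7% of all genes differed (edgeR, adjusted p under 0.05). Comparisons of the high with the low dose of 1 extract are therefore given beside those with vehicle. Of the epithelial markers, KRT8 stood at 3726, KRT18 at 2881, CDH1 at 33.9, KRT19 at 29.2 and EPCAM at 4.84 CPM in vehicle (CPM, counts scaled to library size with TMM factors), beside the mesenchymal markers VIM at 1048 and CDH2 at 107. Of the markers of other cell types, COL1A1 stood at 31.2, CD14 at 2.45, PECAM1 at 0.139 and PTPRC, CD3E and ALB at 0 CPM in vehicle. Nothing in the labels says that replicates were separate cultures, so what the p-values measure is spread among these libraries, which may be technical. Where a gene's groups are said below not to overlap, the share of all genes without overlap was not counted. Members that were not called could also lack overlap, as HSP90AA1 did between Menthae Herba and Saposhnikoviae Radix at the high dose. In bulk RNA, a loss of cells that hold more of a transcript and a loss of that transcript in each cell cannot be told apart.

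In vehicle, the members together made up 1.40% of all counts, 13998 ± 135 CPM (SD, n = 3). Per kilobase of transcript, the scale on which genes can be compared, HSP90AA1 stood highest at 846 CPM per kb. HSP90AB1, the constitutive cytosolic HSP90, and HSPA8, the constitutive HSP70, both stood at 811. HSPD1 (476), HSPB1 (464) and PTGES3 (335) followed on the same scale. The heat-inducible HSP70 genes were expressed without any heat treatment, HSPA1A at 128 and HSPA1B at 76.6 CPM per kb. At the other end were CRYAB at 5.19, HSPB8 at 4.52, HSPA4L at 3.57 and DNAJA4 at 0.219, so the small heat shock proteins spanned a wide range.

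The summed level of the members fell with the dose of Polygalae Radix, from 12986 ± 6.3 CPM at the low dose to 9398 ± 145 at the medium and 4218 ± 165 at the high dose (SD, n = 2 each). At the high dose of Aucklandiae Radix it was 9824 ± 44 (SD, n = 2), and at its medium and low doses 12813 ± 295 and 12818 ± 164. Guibi-tang at the high dose stood at 11636 ± 540 (SD, n = 3), below its own low dose at 13001 ± 227. The means of the remaining treated groups lay between 12594 and 13528 CPM, each below the vehicle mean. A sum is carried by its most abundant members, so the genes are described one by one below.

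**Figure D1:**
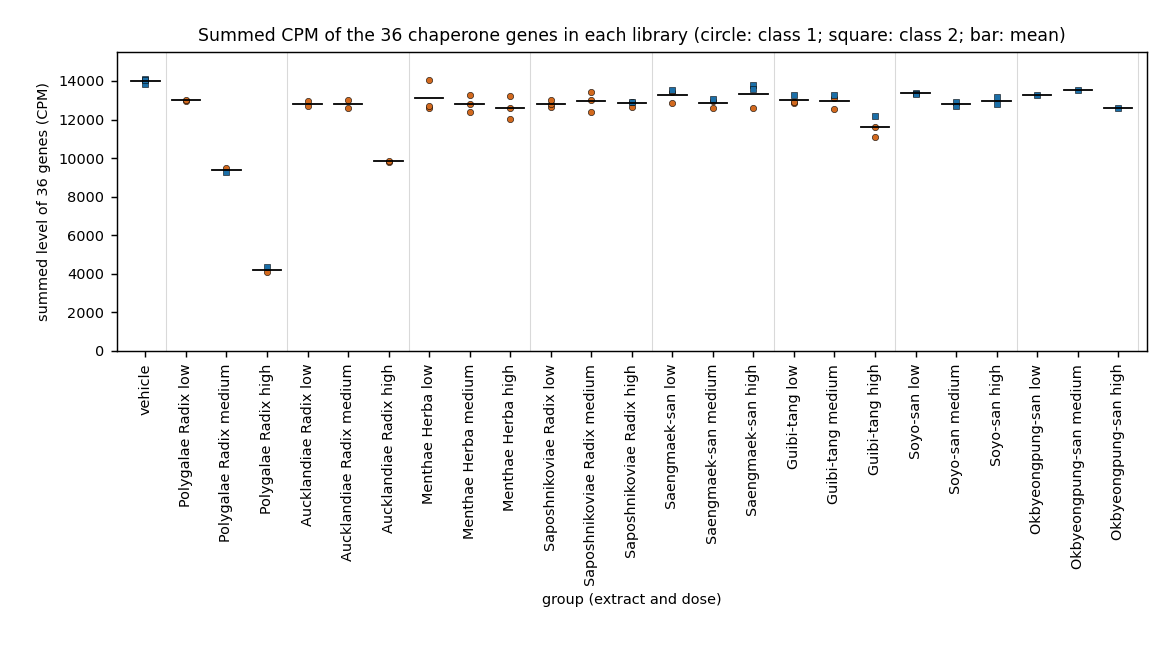
Summed level of the 36 members in CPM (y axis, from 0) for each library, by group on the x axis, with circles for class 1, squares for class 2 and bars for group means. The 2 libraries of Polygalae Radix at its high dose, with a mean of 4218, lie below all others, followed by those of its medium dose, with a mean of 9398, and of Aucklandiae Radix at its high dose, with a mean of 9824.

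Polygalae Radix at 380 µg/mL lowered nearly the whole group. Against vehicle, 32 of 36 members fell and none rose, with a median log2 fold change of −1.04 against 0.05 over all genes. The background was high, since 59.5% of all genes were called in this comparison, 30% higher and 29.5% lower. Against the low dose of 15.2 µg/mL, from the same set of libraries, 30 fell and 1 rose with a median of −1.26, where 56.9% of all genes were called (27.9% higher, 29.1% lower) and the median over all genes was 0.04.

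Both cytosolic HSP90 genes were among the most strongly lowered. HSP90AA1, the inducible HSP90 on chr14:102080738-102139699, measured 2833, 2869 and 2869 CPM in the vehicle libraries. It measured 2451 and 2456 at the low dose, 1407 and 1379 at the medium and 373 and 310 at the high dose. The 4 groups did not overlap and each step was downward. At the high dose this was an 8.37-fold reduction from vehicle, a log2 fold change of −3.07 ± 0.08 (SE; edgeR adjusted p = 1.5e-30), and −2.85 ± 0.08 from the low dose (edgeR adjusted p = 5.6e-29). HSP90AB1 went from 2093, 2210 and 2204 in vehicle to 487 and 443 CPM, a log2 fold change of −2.22 ± 0.07. Its low dose libraries, at 2001 and 2016, lay just under vehicle, and its medium dose libraries, at 1222 and 1281, lay between. TRAP1, the HSP90 of the mitochondrial matrix, fell by 1.55 on the log2 scale against vehicle and by 1.42 against the low dose.

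All 6 HSP90 co-chaperones fell in both comparisons. STIP1, which links HSP70 to HSP90, measured 359, 379 and 368 CPM in vehicle, 322 and 320 at the low dose and 104 and 86.5 at the high dose, a log2 fold change of −1.95 ± 0.10 from vehicle. FKBP4, a prolyl isomerase of steroid receptor complexes, measured 337, 351 and 354 in vehicle and 90.1 and 90.7 at the high dose (−1.94 ± 0.07). The high dose libraries of both genes lay far below the other groups. The changes were smaller for CHORDC1 (−1.05), AHSA1, the activator of the HSP90 ATPase (−1.02), CDC37, the kinase adaptor (−0.71), and PTGES3, the p23 co-chaperone (−0.70), all on the log2 scale against vehicle.

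Of the 7 HSP70 genes, 5 fell. HSPA1A, the heat-inducible HSP70, measured 331, 308 and 312 CPM in vehicle, 239 and 220 at the low dose, 171 and 145 at the medium and 47.3 and 35.6 at the high dose. HSPA1B, its near copy, measured 192, 185 and 203 in vehicle, 138 and 128 at the low dose, 83.5 and 80.2 at the medium and 32.2 and 27.7 at the high dose. Both genes stepped down at each dose without overlap. Against vehicle the log2 fold changes were −2.94 ± 0.17 for HSPA1A and −2.69 ± 0.12 for HSPA1B (SE; edgeR adjusted p = 6.1e-19 and 2.4e-22), and against the low dose −2.48 and −2.15. The transcripts are 95.0% identical over 2401 aligned bases and reads can be split between them. Their summed counts fell by 2.84 on the log2 scale against vehicle and by 2.35 against the low dose. HSPA8 fell by 1.70, HSPA2, a member best known from the testis, by 1.45, and HSPA9, the mitochondrial HSP70, by 1.37 against vehicle. HSPA13 (−0.06) and HSPA14, a ribosome-associated member (0.11), were not called.

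The 3 HSP110 proteins, which release nucleotide from HSP70, all fell. HSPA4L measured 39.7, 37.0 and 39.0 CPM in vehicle, 30.8 and 32.8 at the low dose and 8.16 and 9.32 at the high dose, a log2 fold change of −2.13 ± 0.11. HSPH1 fell by 1.83 and HSPA4 by 1.37. The 8 J proteins all fell against vehicle by less, from −1.25 for DNAJA1 to −0.29 for DNAJA3, a mitochondrial member, with a median of −0.71. DNAJB1, the J protein most tied to the heat shock response, fell by 0.80. Against the low dose DNAJA4 (−0.34) and DNAJB4 (−0.17) were not called. Of the HSP70 adaptors, ST13 fell by 1.61, BAG3, which directs clients to autophagy, by 0.95, and BAG1 by 0.34 against vehicle.

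The mitochondrial chaperonin subunits moved unequally. HSPD1 measured 1169, 1168 and 1169 CPM in vehicle and 1207 and 1271 at the low dose, then 570 and 828 at the medium and 237 and 307 at the high dose. Its low dose libraries lay above vehicle and its high dose libraries far below, a log2 fold change of −2.10 ± 0.11 from vehicle and −2.19 ± 0.12 from the low dose (edgeR adjusted p = 7.8e-20). HSPE1, the lid of the barrel, fell by 0.75 against vehicle and by 1.33 against the low dose. Both genes start from a shared bidirectional stretch, and their loci overlap on opposite strands. The kit kept strand, but whether the counting used strand is not stated in the sources at hand.

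Among the small heat shock proteins HSPB1 fell by 1.79 and HSPB8 by 1.02 against vehicle, whereas CRYAB was not called (−0.15 against vehicle and −0.10 against the low dose, edgeR adjusted p = 0.51 and 0.71). Within class 1 of the libraries, with 1 high dose library against 2 of the low dose, CRYAB changed by −0.42 (edgeR adjusted p = 0.033). HSF1 was the member called higher at the high than at the low dose, by 0.50 ± 0.15 on the log2 scale (edgeR adjusted p = 0.0059). Its libraries measured 131 and 79.0 CPM at the high dose and 73.5 and 75.1 at the low dose, and 99.2, 97.7 and 97.9 in vehicle. The value of 131 came from replicate 2, a library of class 2, while the other and both low dose libraries were of class 1. Without that library the HSF1 difference was 0.08 (edgeR adjusted p = 0.72). Within class 1, with 1 high dose against 2 low dose libraries, the median log2 change of the members was −1.11. It was −2.99 for HSP90AA1, −2.69 for HSPA1A and −2.01 for HSPD1, and rests on that 1 high dose library. Markers of the cell line fell too when summed, with 7 epithelial and mesenchymal markers at 1141 and 1322 CPM at the high dose against 7717 to 8042 in vehicle. Most of that sum in vehicle was KRT8 and KRT18, with VIM next, so it says little of the other markers. The summed level of 6 markers of other cell types was 11.3 and 16.4 against 32.8 to 35.5, nearly all of it COL1A1, and their part in the result was not tested.

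**Figure D2:**
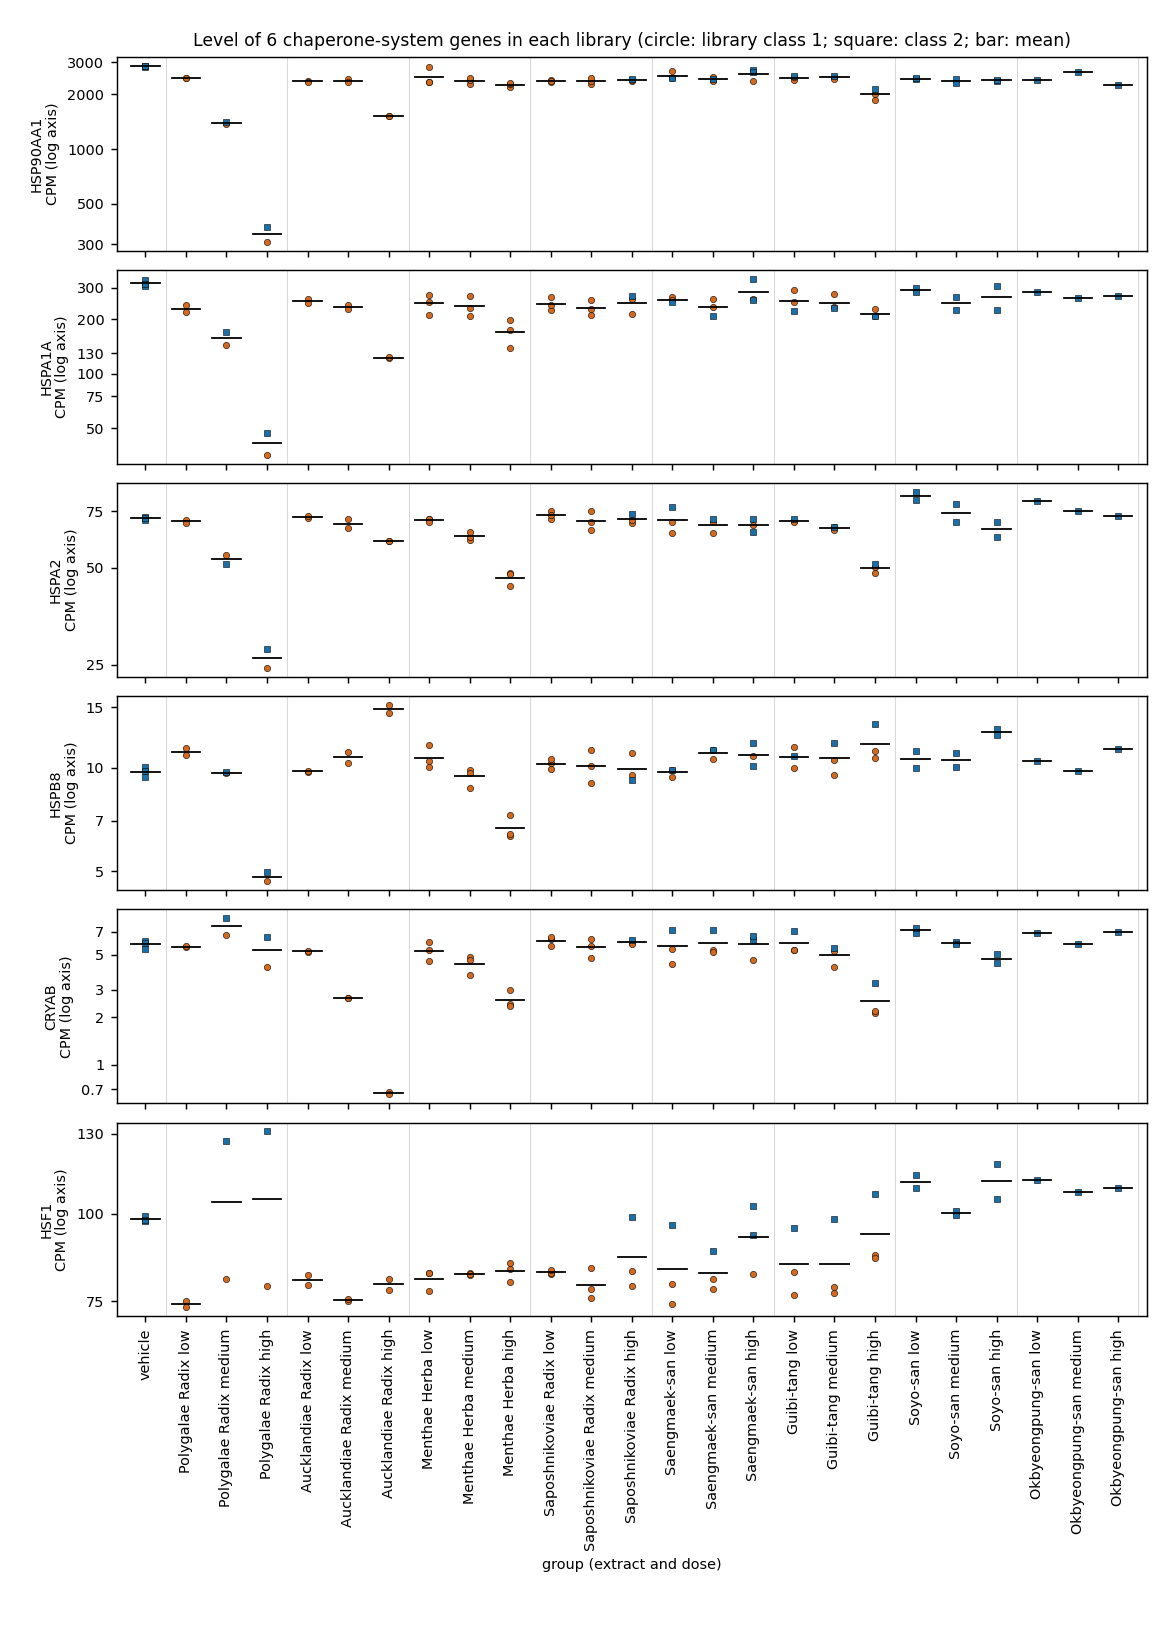
CPM (y axes, log scale) of selected members in each library, by group on the x axis, with circles for libraries of class 1, squares for class 2 and bars for group means. HSP90AA1 steps from 2833 to 2869 in vehicle down to 373 and 310 at the high dose of Polygalae Radix, and CRYAB reaches 0.674 and 0.649 at the high dose of Aucklandiae Radix.

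At the medium dose of 76 µg/mL, 18 members fell and none rose against vehicle, where 18.2% of all genes were called (8.65% higher, 9.57% lower), with a median of −0.34. The largest falls on the log2 scale were of HSPA1B (−1.24), HSP90AA1 (−1.04), HSPA1A (−1.01), HSPA4L (−0.94), HSP90AB1 (−0.79) and HSPD1 (−0.74). At the low dose 3 fell and none rose, HSPA1B (−0.54), HSPA1A (−0.47) and DNAJB1 (−0.29), where 6.11% of all genes were called (3.36% higher, 2.75% lower). With a term for the library class 2 of these 3 calls held. The low dose count was 1 without any 1 vehicle library or Polygalae Radix low replicate 2, and 0 without replicate 3.

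Aucklandiae Radix at 370 µg/mL lowered 21 members and raised 1 against vehicle, where 35.4% of all genes were called (18.3% higher, 17.1% lower), with a median of −0.25. Against its low dose of 14.8 µg/mL, 16 fell and 2 rose with a median of −0.18, where 18.3% were called (9.01% higher, 9.25% lower). That count of 18 was 10 without high dose replicate 2 or low dose replicate 2, and 11 without high dose replicate 3.

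CRYAB, a small heat shock protein also known as a lens crystallin, changed most. It measured 6.09, 5.40 and 5.93 CPM in vehicle, 5.20 and 5.28 at the low dose, 2.66 and 2.65 at the medium and 0.674 and 0.649 at the high dose. Low dose libraries lay at or just under vehicle, and the medium and high doses stepped down without overlap. The log2 fold change at the high dose was −3.13 ± 0.25 from vehicle and −2.98 ± 0.26 from the low dose (SE; edgeR adjusted p = 2e-13 and 6.3e-12). The high dose values rested on 19 and 20 counts, those of the low dose on 140 and 152. CRYAB overlaps HSPB2 and 2 further genes on the opposite strand. HSPB1, the most abundant small heat shock protein, measured 382 and 360 CPM at the low dose and 207 and 226 at the high dose, a log2 change of −0.78 ± 0.21, which was −0.72 (edgeR adjusted p = 0.068) without high dose replicate 2. HSPB8, a partner of BAG3, went the other way, from 9.73 and 9.80 at the low dose to 15.2 and 14.5 at the high dose, a rise of 0.60 ± 0.10 from the low dose and 0.61 ± 0.09 from vehicle. The 3 small heat shock proteins thus moved in different directions at this dose.

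The inducible HSP70 genes came next. HSPA1A measured 260 and 248 CPM at the low dose, 240 and 227 at the medium and 123 and 123 at the high dose, a log2 change of −1.04 ± 0.16 from the low dose and −1.37 ± 0.15 from vehicle. HSPA1B measured 133 and 143, then 134 and 129, then 69.5 and 67.8, a change of −1.01 ± 0.12 and −1.49 ± 0.12. Low and medium dose libraries of both genes lay close together and the high dose apart. Summed, the pair fell by 1.03 from the low dose and by 1.41 from vehicle. HSP90AA1 fell to 1519 and 1528 CPM from 2377 and 2332 at the low dose (−0.63 ± 0.08), and HSP90AB1 to 1488 and 1496 from 2022 and 1996 (−0.43 ± 0.07). FKBP4 (−0.55), HSPH1 (−0.49), STIP1 (−0.40), HSPA8 (−0.39) and HSPD1 (−0.37) also fell from the low dose. DNAJB4 rose from 29.6 and 28.9 to 38.3 and 39.7 CPM, by 0.41 ± 0.14 (edgeR adjusted p = 0.039). Its call was lost without any 1 of these 4 libraries, at 0.39 to 0.44 and adjusted p of 0.118 to 0.192. All Aucklandiae Radix libraries were of class 1. The epithelial and mesenchymal marker sum stood at 5215 and 5349 at the high dose against 7514 and 7548 at the low dose, and CD14, a monocyte marker, at 5.32 to 6.00 against 2.97 to 3.65, and their part in the result was not tested.

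At the medium dose of Aucklandiae Radix, 5 members fell and 1 rose against vehicle, where 5.33% of all genes were called (2.8% higher, 2.52% lower): CRYAB (−1.13), HSPA1B (−0.56), HSPH1 (−0.29), DNAJB1 (−0.27) and HSP90AA1 (−0.26) fell and HSPE1 (0.67) rose. The count was 1 to 3 without any 1 library. With a term for the library class 3 of the 6 medium dose calls held, and 5 of the 6 at the low dose. At the low dose 5 fell, HSPA1B, HSPA4L, CHORDC1, HSPH1 and HSP90AA1, and HSPE1 rose, where 6.9% were called (3.63% higher, 3.27% lower). That count was 0 without low dose replicate 2 and 3 without replicate 3.

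Menthae Herba at 500 µg/mL lowered 14 members and raised 5 against vehicle, where 29.3% of all genes were called (14.5% higher, 14.9% lower), with a median of −0.10. With a term for the library class 14 of these 19 calls held. Against its low dose of 20 µg/mL, 6 fell and 2 rose, where 15.3% were called (5.95% higher, 9.37% lower), with a median of −0.05. CRYAB measured 4.52, 5.38 and 5.97 CPM at the low dose and 2.99, 2.43 and 2.35 at the high dose, a log2 change of −1.03 ± 0.18 (edgeR adjusted p = 2.3e-05). HSPB8 measured 10.4, 11.6 and 10.0 at the low dose and 7.28, 6.34 and 6.39 at the high dose, a change of −0.68 ± 0.09. Neither gene's groups overlapped, and HSPB8 moved in the opposite direction to that under Aucklandiae Radix. HSPA2 measured 70.7, 71.1 and 69.5 at the low dose and 43.9, 48.1 and 47.8 at the high dose (−0.60 ± 0.06, edgeR adjusted p = 2.2e-10). HSPA1A went from 210, 251 and 274 to 138, 176 and 199 CPM (−0.52 ± 0.13), where replicate 1 was the lowest in both groups. Without high dose replicate 1 its change was −0.39 (edgeR adjusted p = 0.055). HSPA1B fell by 0.42 and DNAJB1 by 0.25. The epithelial and mesenchymal marker sum was 5319 to 5612 CPM at the high dose, 7165 to 8088 at the low dose and 7717 to 8042 in vehicle, and its part in the result was not tested.

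The rises under Menthae Herba were small. HSPA9 measured 579, 563 and 606 CPM at the low dose and 680, 679 and 706 at the high dose, a rise of 0.24 ± 0.05 from the low dose and 0.16 from vehicle. Its groups did not overlap, but with no filter on low counts neither rise was called (edgeR adjusted p = 0.060 and 0.22). HSPA4L rose by 0.25 from the low dose, and the call was lost without low dose replicate 1, high dose replicate 2 or high dose replicate 3, at 0.19 to 0.23. Against vehicle HSPE1 rose by 0.57 ± 0.17, from 201, 210 and 220 to 309, 306 and 322 CPM. With a term for the library class it was 0.21 (edgeR adjusted p = 0.28), and its low dose libraries stood as high, at 342, 289 and 366. DNAJC7 rose by 0.20 and was not called without vehicle replicate 1 (0.17). HSPA13 rose by 0.28, and this call was lost without any 1 library but high dose replicate 3, at 0.15 without high dose replicate 1. DNAJA3 rose by 0.14. Among the falls from vehicle, HSPA1B (−0.96) and HSPA1A (−0.89) followed CRYAB (−1.16). DNAJA4 changed by −0.94 on 0.554, 0.635 and 0.944 against 0.288, 0.466 and 0.347 CPM. Its call was lost without vehicle replicate 3 (−0.69) or high dose replicates 1 (−0.80) or 3 (−0.91), and under DESeq2 (adjusted p = 0.052).

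At the medium dose of Menthae Herba 6 members fell and none rose against vehicle, where 5.29% of all genes were called (2.73% higher, 2.57% lower), HSPA1B (−0.56), BAG3 (−0.47), HSPA1A (−0.42), DNAJB1 (−0.38), HSPH1 (−0.28) and HSP90AA1 (−0.27). The count was 3 without vehicle replicate 3 and 2 without medium dose replicate 1. At the low dose 8 fell and 2 rose, BAG1 (0.40) and HSPE1 (0.66), where 12.8% were called (7.23% higher, 5.58% lower). That count was 6 without any 1 vehicle library, and 4 and 5 without low dose replicates 1 and 3. With a term for the library class 4 of the 6 medium dose calls held, and 5 of the 10 at the low dose.

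Guibi-tang at 500 µg/mL lowered 11 members and raised 1 against vehicle, where 9.33% of all genes were called (4.38% higher, 4.95% lower), with a median of −0.17. Against its low dose 4 fell and none rose, where 2.86% were called (0.919% higher, 1.95% lower), with a median of −0.10. CRYAB measured 5.36, 5.33 and 7.10 CPM at the low dose and 2.13, 2.18 and 3.29 at the high dose, a log2 change of −1.24 ± 0.18 (edgeR adjusted p = 6.2e-06). In each group replicate 3, of library class 2, was highest, and the change was −1.31 within class 1, with 2 libraries against 2, and −1.11 between the single pair of class 2. HSPA2 measured 70.1, 69.3 and 71.1 at the low dose and 50.2, 48.2 and 51.5 at the high dose (−0.49 ± 0.06, edgeR adjusted p = 2.3e-07). HSP90AA1 measured 2391, 2479 and 2504 and then 2013, 1858 and 2135 (−0.30 ± 0.06), and HSP90AB1 1970, 1955 and 2113 and then 1650, 1569 and 1836 (−0.26 ± 0.06). None of these 4 genes' groups overlapped, though the share of all genes without overlap was not counted. The HSP90AB1 call was lost without high dose replicate 2 (−0.21) or low dose replicate 3 (−0.22). With only the libraries compared in the fit neither HSP90 gene was called (edgeR adjusted p = 0.11 and 0.21). The marker sum was 4785 to 5925 at the high dose and 6688 to 7792 at the low dose, and its part in the result was not tested. Against vehicle, HSPA1B fell by 0.67 and HSPA1A by 0.56, but neither was called against the low dose (−0.26 and −0.24, edgeR adjusted p = 0.20 and 0.51). HSPB8 rose by 0.27 from vehicle, and this call was lost without any 1 library but high dose replicate 2, at 0.17 to 0.30, and under DESeq2 (adjusted p = 0.060). At the medium dose HSPA1B (−0.60) and DNAJB1 (−0.29) fell, where 0.527% of all genes were called (0.234% higher, 0.294% lower), and the count was 1 without any 1 library. At the low dose HSPA1B (−0.42) fell, where 0.223% were called (0.12% higher, 0.103% lower), and it was not called without any 1 library.

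Soyo-san at 500 µg/mL lowered 11 members and raised 2 against vehicle, where 28.4% of all genes were called (12.9% higher, 15.5% lower), with a median of −0.11. DNAJB4, a J protein of the heat shock class, measured 37.5, 36.4 and 36.6 CPM in vehicle, 27.5 and 28.1 at the low dose and 22.6 and 20.2 at the high dose, a change of −0.78 ± 0.14. HSPA4L measured 23.2 and 25.6 at the high dose against 39.7, 37.0 and 39.0 in vehicle (−0.66 ± 0.10), and CHORDC1 72.8 and 76.3 against 109, 106 and 107 (−0.53 ± 0.09). The high dose libraries of all 3 genes lay below every vehicle library. Okbyeongpung-san, of the same set and with 1 library per dose, also had them below the vehicle mean. Its log2 ratios were −0.55, −0.54 and −0.42 for DNAJB4, HSPA4L and CHORDC1 at the high dose, and −0.66, −0.55 and −0.40 at the low dose. For these falls from vehicle, extract and set cannot be told apart. DNAJA4 changed by −1.17 on 0.379 and 0.241 CPM, and its call was lost without vehicle replicate 3 (−0.92) or high dose replicate 2 (−0.90), and under DESeq2 (adjusted p = 0.054). HSPB8 rose by 0.38. BAG1 rose by 0.34, and was not called without vehicle replicate 1 (0.32), vehicle replicate 2 (0.34) or high dose replicate 2 (0.23). The count of 13 was 8 without high dose replicate 2. Against the low dose HSPA2 alone was called, where 1.19% of all genes were called (0.375% higher, 0.81% lower), at 81.3 and 86.1 CPM at the low and 62.4 and 69.4 at the high dose (−0.35 ± 0.07, edgeR adjusted p = 0.0077). That call was lost without high dose replicate 1 (−0.27) or low dose replicate 2 (−0.31), and with no filter on low counts (edgeR adjusted p = 0.052). At the low dose 5 members fell and HSPA2 (0.23) and BAG1 (0.45) rose against vehicle, where 10.5% of all genes were called (5.34% higher, 5.17% lower), and the count of 7 was 0 without low dose replicate 1 and 3 or 4 without any other library. At the medium dose none was called by edgeR, where 0.0489% of all genes were called (0.0217% higher, 0.0272% lower). There 12 members had an unadjusted p under 0.05, and DESeq2 called 6, but the share of all genes was counted for neither.

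Saposhnikoviae Radix and Saengmaek-san changed few members. At 500 µg/mL of Saposhnikoviae Radix HSPA1B (−0.54), DNAJB1 (−0.33) and HSP90AA1 (−0.26) fell against vehicle, where 0.902% of all genes were called (0.522% higher, 0.381% lower). HSPA1B measured 115, 147 and 137 CPM against 192, 185 and 203, and DNAJB1 119, 123 and 140 against 163, 158 and 161. Neither gene's groups overlapped. The count was 0 without high dose replicate 1, and HSP90AA1 was not called without any 1 library. At 500 µg/mL of Saengmaek-san HSPA1B (−0.42), DNAJB4 (−0.40), HSPA4L (−0.39) and HSPH1 (−0.24) fell, where 3.6% were called (1.87% higher, 1.73% lower). The count was 2 without vehicle replicate 1, vehicle replicate 2 or high dose replicate 3, and 1 without vehicle replicate 3. With only the libraries compared in the fit it was 0. Summed with HSPA1A, the pair changed by −0.25 (edgeR adjusted p = 0.20), so the summed counts of the copies did not carry the call. Against the low dose no member was called for either extract, where 0.0707% of all genes were called in each (0.0217% higher and 0.0489% lower for Saposhnikoviae Radix, 0.0598% and 0.0109% for Saengmaek-san). At an unadjusted p under 0.05 there were 0 members for Saposhnikoviae Radix and 1 for Saengmaek-san, and DESeq2 called 0 for both. The share of all genes was counted for neither of these.

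At 100 µg/mL of Saposhnikoviae Radix 7 members fell, led by HSPA1B (−0.61), and HSPE1 rose (0.62), where 7.49% of all genes were called (4.28% higher, 3.21% lower). The count of 8 was 4, 5 and 3 without vehicle replicates 1, 2 and 3, and 3 and 2 without medium dose replicates 1 and 2. With a term for the library class 6 of these 8 calls held. At 20 µg/mL 5 fell, HSPA1B (−0.51), BAG3 (−0.47), HSP90AA1 (−0.28), DNAJB1 (−0.27) and HSPH1 (−0.25), where 3.95% were called (2.2% higher, 1.75% lower). That count was 2 without any 1 vehicle library or low dose replicate 1, and 1 without low dose replicate 2. With a term for the library class 4 of the 5 low dose calls held. For Saengmaek-san HSPA1B alone (−0.52) fell at 100 µg/mL, where 0.326% were called (0.13% higher, 0.196% lower), and it was not called without vehicle replicate 3. At 20 µg/mL none was called by edgeR, where 0.446% were called (0.239% higher, 0.207% lower). There 10 members had an unadjusted p under 0.05 and DESeq2 called 1, but the share of all genes was counted for neither. Okbyeongpung-san, with 1 library per dose, has no replicate check. Its members' log2 ratios to the vehicle mean had medians of −0.05, −0.01 and −0.04 from the high to the low dose and lay between −0.66 and 0.63, and 0 members passed 2-fold at any dose, where 3.4%, 4.36% and 3.28% of all genes did.

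HSP90AA1, HSPA1B and HSPH1 measured below every vehicle library in 57 of 57 treated libraries, as did 0.435% of all genes tested. HSPA1A and DNAJB1 did so in 56, and with them 5 of 36 members reached at least 56, against 1.14% of all genes. CHORDC1 and HSPA4L lay below every vehicle library in 55 treated libraries and DNAJB4 in 54. BAG1 lay above every vehicle library in 52 treated libraries and below in 5, and HSPE1 above in 46 and below in 6. The high dose libraries of Polygalae Radix were among those below for both BAG1 and HSPE1. The share of all genes that reached the numbers of these members was not counted. The comparisons with vehicle share the same 3 vehicle libraries, which belong to none of the extracts' sets, so treatment and set cannot be told apart there. HSPE1 was lower in class 2, the class of the vehicle libraries, by 0.36 on the log2 scale, and HSPB1 (0.46), CRYAB (0.40), BAG3 (0.40) and HSF1 (0.35) were higher in it.

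**Figure D3:**
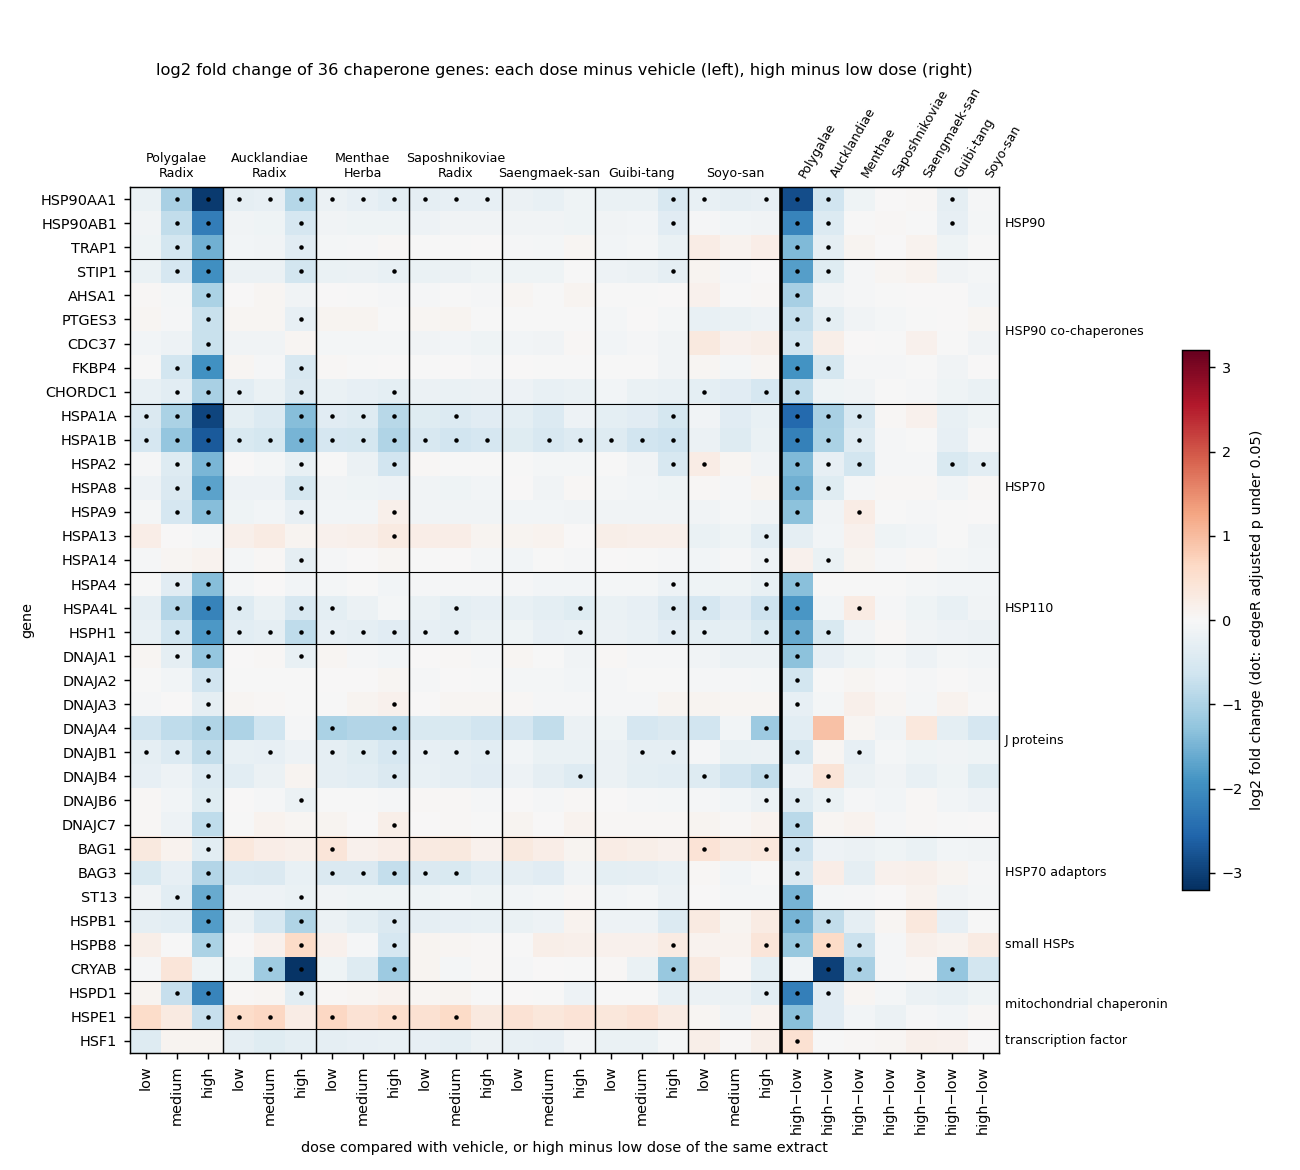
Log2 fold change against vehicle (color scale) of the 36 members (y axis, by role) at each dose of the 7 replicated extracts, and between high and low dose of each in the right columns, with dots for an edgeR adjusted p under 0.05. The column of Polygalae Radix at the high dose, with 32 members lower, is the darkest, and the CRYAB row is darkest for Aucklandiae Radix at −3.13.

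Compared across the 7 replicated extracts, HSPA2 was the member whose fall from the low to the high dose was called most often, in 5. The changes were −1.42 for Polygalae Radix, −0.60 for Menthae Herba, −0.49 for Guibi-tang, −0.35 for Soyo-san and −0.25 for Aucklandiae Radix, against −0.04 for Saposhnikoviae Radix and −0.05 for Saengmaek-san. CRYAB fell in 3, by 2.98 for Aucklandiae Radix, 1.24 for Guibi-tang and 1.03 for Menthae Herba. For Polygalae Radix, where most other members fell, it changed by −0.10. These comparisons share no libraries. How many of all genes were called lower in as many extracts was not counted. The Soyo-san call of HSPA2 was lost with no filter on low counts and in some fits without 1 library.

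**Figure D4:**
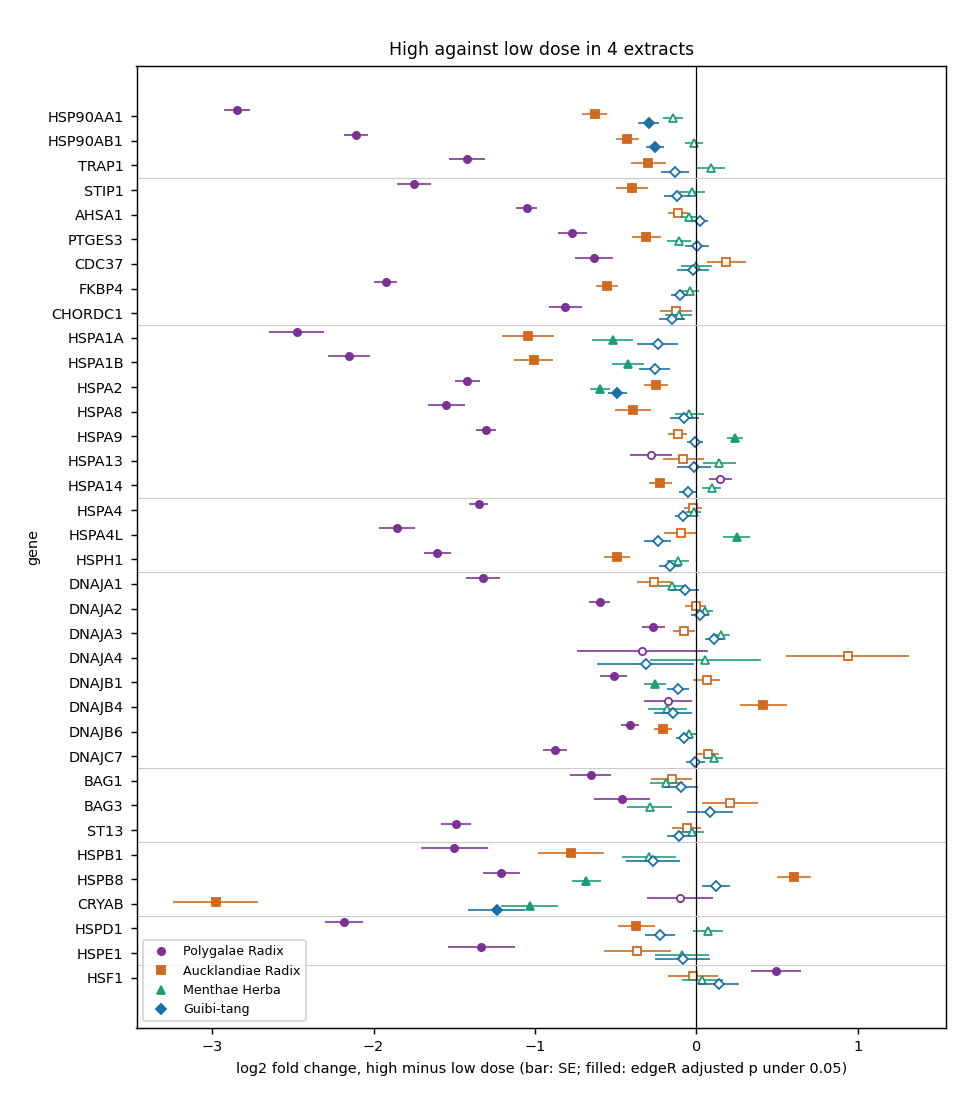
Log2 fold change of each member between the high and the low dose (x axis) for the 4 extracts with the most calls, with bars of 1 SE and filled points for an edgeR adjusted p under 0.05. Polygalae Radix spreads from −2.85 for HSP90AA1 to 0.50 for HSF1, and the lowest point of the others is CRYAB.

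Direct tests between extracts at the high dose bear on whether these patterns differ. Polygalae Radix at 380 µg/mL and Aucklandiae Radix at 370 µg/mL come from the same set of libraries at nearly the same dose. Of the 36 members 32 were lower and 3 higher under Polygalae Radix, where 58% of all genes were called (28.1% higher, 29.9% lower), with a median of −0.95. HSP90AA1 (−2.16 ± 0.08), HSPD1 (−1.75 ± 0.12) and HSP90AB1 (−1.68 ± 0.07) differed most in that direction. CRYAB was higher by 2.98 ± 0.26 (edgeR adjusted p = 4.3e-13) and HSPA14 by 0.39. HSF1 was higher by 0.40 ± 0.15, but the value was −0.02 without Polygalae Radix high dose replicate 2 and 0.70 without replicate 3, and the call was also lost without either Aucklandiae Radix library (0.36 and 0.40). Menthae Herba and Saposhnikoviae Radix, both at 500 µg/mL and in 1 set, differed in 9 members, 7 lower and 2 higher under Menthae Herba, where 16% of all genes were called (6.16% higher, 9.81% lower). CRYAB (−1.21 ± 0.18), HSPA2 (−0.61 ± 0.06) and HSPB8 (−0.58 ± 0.09) were lower, and HSPA9 (0.28 ± 0.05) and DNAJC7 (0.22 ± 0.06) higher. Guibi-tang and Saengmaek-san at 500 µg/mL differed in 4 members, all lower under Guibi-tang, where 2.13% were called (0.62% higher, 1.51% lower): CRYAB (−1.20 ± 0.18), HSPA2 (−0.44 ± 0.06), HSP90AA1 (−0.36 ± 0.06) and HSP90AB1 (−0.24 ± 0.06). That count of 4 was 8 without Saengmaek-san high dose replicate 2 and 7 without Guibi-tang high dose replicate 3. With only these libraries in the fit it was 0, with CRYAB at −1.19 (edgeR adjusted p = 0.21).

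Other genes of the folding machinery were taken from lists set beside the members. All 8 subunits of the cytosolic chaperonin TRiC, which folds actin and tubulin, fell under Polygalae Radix at the high dose in both comparisons, with a median of −1.59 against vehicle and −1.67 against the low dose, and CCT7 fell by 2.17 and 2.31. These counts stand against 59.5% of all genes called against vehicle (30% higher, 29.5% lower). Of 10 further HSP90 co-chaperones 8 fell and none rose against vehicle, with UNC45A, a myosin chaperone, at −1.68 and FKBP5, a glucocorticoid-induced isomerase, at −0.33. The 10 further exchange factors and J proteins split, with 3 higher and 5 lower. BAG6 fell by 1.93, while BAG5 rose by 0.71. Among 12 partners and proteases of the mitochondrial matrix and inner membrane 2 rose and 5 fell, a share near that of all genes, with LONP1, a matrix protease, at −1.24 and GRPEL2, an exchange factor of HSPA9, at 0.87. Of the 6 prefoldin subunits, which pass chains to TRiC, 4 fell and PFDN4 rose by 0.52. In the list of other heat shock factors and heat-inducible genes 6 of 9 fell, with UBB at −1.71 and SERPINH1, the collagen chaperone, at −1.65, and HSF2 (0.42) and HSF4 (1.34) rose. HSPA6, the strictly inducible HSP70, was not called (−0.53, edgeR adjusted p = 0.36).

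Of these lists, the TRiC subunits moved less at the high dose of the other replicated extracts than under Polygalae Radix. The median log2 change of the prefoldin subunits against vehicle was 0.40 under Aucklandiae Radix and 0.42 under Menthae Herba, beside −0.40 under Polygalae Radix. That of the mitochondrial genes was 0.21 under Menthae Herba and −0.16 under Polygalae Radix. At the high dose of Aucklandiae Radix 2 of 8 TRiC subunits fell against vehicle, where 35.4% of all genes were called, and 3 fell against the low dose, where 18.3% were. Against vehicle 3 of 6 prefoldin subunits and 4 of the 12 mitochondrial genes rose and none of either fell. Of the further HSP90 co-chaperones 2 rose and 3 fell there, of the exchange factors and J proteins 1 rose and 2 fell, and in the list of heat shock factors and heat-inducible genes 3 rose and 3 fell. At the high dose of Menthae Herba 7 of the 12 mitochondrial genes rose against vehicle, where 29.3% of all genes were called, and 3 against the low dose, where 15.3% were, and none fell. There 5 of 6 prefoldin subunits and 3 of 8 TRiC subunits also rose against vehicle, and none of either was called against the low dose. Of the further HSP90 co-chaperones 4 rose against vehicle and 1 against the low dose, no exchange factor or J protein was called in either, and of the heat shock factors and heat-inducible genes 4 rose and 1 fell against vehicle. Under Guibi-tang at the high dose 2 prefoldin subunits and 1 heat-inducible gene or factor rose and 1 exchange factor or J protein fell against vehicle, where 9.33% of all genes were called, and against the low dose none of the genes in these lists was called for it. For Soyo-san at the high dose 5227 of 18396 genes were called against vehicle. There 4 of the 12 mitochondrial genes rose and 2 fell, 2 prefoldin subunits and 3 heat-inducible genes or factors rose, and 1 TRiC subunit fell. Of the further HSP90 co-chaperones 1 rose, and of the exchange factors and J proteins 1 rose and 1 fell. None was called against its low dose.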

How the data were processed

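The authors deposited expected counts per gene from RSEM, in a table of 60675 genes by 60 libraries. Per the submitters' processing notes, the tools were RSEM 1.3.3, STAR 2.7.3a, Trim Galore 0.6.5 and FastQC 0.11.9, and the build was GRCh38. Their roles and settings are not stated in the sources at hand. Of the deposited values 9.95% had decimals and were rounded. The 36 members and the further gene lists were chosen with earlier results of these data known.

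CPM values are counts scaled to library size with TMM factors. A single fit over 57 libraries in 22 groups (edgeR 4.0.16 quasi-likelihood with robust estimation in R 4.3.3, limma 3.58.1) tested 18396 genes after the edgeR filter on low counts, with 35 residual degrees of freedom. It gave 31 comparisons, with Benjamini-Hochberg adjustment over all genes tested and a threshold of 0.05. The fitting code was tested on simulated data. SE was taken as the log2 fold change over the square root of F. Okbyeongpung-san was left out of the fit, and its ratios used a prior count of 2. Alternatives were DESeq2 1.42.0, its size factors, no filter, a replicate block, a term for or restriction to a library class, only the libraries compared, summed HSPA1A and HSPA1B, and leaving out each library. All members could be named. Values per library were given for up to 4 rises and 4 falls of largest size per extract at the high dose, and up to 3 each way between extracts. Outside that rule they were also given for STIP1, FKBP4 and HSPA4L under Polygalae Radix and for HSP90AA1 and HSP90AB1 under Aucklandiae Radix. Those comparisons are not among the calls of named members followed through the alternatives. Replicate numbers were not taken as pairs. In 0 of the 18 comparisons with 3 pairs did every pair of same-numbered libraries deviate together, at a correlation across genes over 0.1. Single pairs reached 0.34 for Saengmaek-san and 0.41 for Guibi-tang, high against low, and 0.31 between these extracts at the high dose. For Saengmaek-san each library correlated best with its own number, so pairing within that set was not settled.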

Additional observations from a re-analysis of the deposited data

Results flagged for a closer look

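The 3 direct tests between extracts of 1 library set at the high dose found differences, and these are listed here because the effects of the extracts differ by a test of the difference itself (edgeR, adjusted p under 0.05). Between Polygalae Radix and Aucklandiae Radix 35 members differed, where 10664 of the 18396 genes tested were called. Lower under Polygalae Radix were HSP90AA1 (−2.16), HSPD1 (−1.75) and HSP90AB1 (−1.68), and higher were CRYAB (2.98), HSPA14 (0.39) and HSF1 (0.40), on the log2 scale. The HSF1 libraries overlapped, and its value was −0.016 without Polygalae Radix high dose replicate 2 and −0.0059 within class 1. The CRYAB difference is the widest of these and runs against the direction of most members. Between Menthae Herba and Saposhnikoviae Radix 9 members differed, where 2937 of the 18396 genes were called. CRYAB (−1.21), HSPA2 (−0.61) and HSPB8 (−0.58) were lower and HSPA9 (0.28) and DNAJC7 (0.22) higher under Menthae Herba. Between Guibi-tang and Saengmaek-san 4 members differed, where 392 of the 18396 genes were called. All 4 were lower under Guibi-tang, among them CRYAB (−1.20), HSPA2 (−0.44) and HSP90AA1 (−0.36). With only these libraries in the fit 0 were called, and without any 1 library the count ranged from 3 to 8. CRYAB and HSPA2 were lower under the first-named extract in the latter 2 tests.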

How the results depend on the processing

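Depth limits the members of lowest level, DNAJA4 above all. With only the libraries compared, members called were 24 for Soyo-san high, 8 for Saposhnikoviae Radix high, 0 for Saengmaek-san high, 25 for Aucklandiae Radix medium, 25 for Menthae Herba medium, 15 for Saposhnikoviae Radix medium, 10 for Saengmaek-san medium, 4 for Guibi-tang medium, 14 for Soyo-san medium, 18 for Polygalae Radix low, 20 for Aucklandiae Radix low, 21 for Saposhnikoviae Radix low, 3 for Saengmaek-san low, 4 for Guibi-tang low, 19 for Soyo-san low, 2 for Guibi-tang high against low and 0 for Guibi-tang against Saengmaek-san. Without the filter on low counts they were 6, 5, 6, 4, 6, 10, 8, 5 and 4 for Saposhnikoviae Radix high, Saengmaek-san medium, Guibi-tang medium, Soyo-san medium, Polygalae Radix low, Aucklandiae Radix low, Saposhnikoviae Radix low, Saengmaek-san low and Guibi-tang low, 1 for Saengmaek-san high against low and 0 for Soyo-san high against low. A term for the library class gave 7 for Saposhnikoviae Radix high, 9 for Saengmaek-san high, 6, 6 and 7 for the medium doses of Saengmaek-san, Guibi-tang and Soyo-san, 6, 9, 3, 5 and 13 for the low doses of Polygalae Radix, Saposhnikoviae Radix, Saengmaek-san, Guibi-tang and Soyo-san, 8 and 2 for high against low of Guibi-tang and Soyo-san, and 7 between Guibi-tang and Saengmaek-san. Within class 2 the counts were 8 for Saengmaek-san high, 20 for Soyo-san high, 5 and 7 for the medium doses of Saengmaek-san and Soyo-san, 6, 0 and 14 for the low doses of Saengmaek-san, Guibi-tang and Soyo-san, and 2 each for high against low of Guibi-tang and Soyo-san. In class 2 there was 1 treated library against 3 for Saengmaek-san medium, Saengmaek-san low and Guibi-tang low, and 1 against 1 for Guibi-tang high against low, so these lone libraries were assumed to vary like the others. DESeq2 called 10, 5, 4 and 6 for the medium doses of Menthae Herba, Saengmaek-san, Guibi-tang and Soyo-san, 9, 8, 1, 2 and 11 for the low doses of Polygalae Radix, Saposhnikoviae Radix, Saengmaek-san, Guibi-tang and Soyo-san, and 7 between Guibi-tang and Saengmaek-san. DESeq2's size factors gave 1 for Saengmaek-san low. The replicate block, with terms for the replicate number shared over all sets, gave 1 for Soyo-san medium, 7 for Polygalae Radix low and 1 for Saengmaek-san low. It left the other counts within 1.5 times, and a block within each set was not tested. The cause of these differences was not tested. The shares of all genes given above belong to the main fit. For the alternative fits of this section no such share is given, so these counts do not set the members apart from other genes.

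Where 1 library was left out, a group left with 1 library was assumed to vary like the others. Members called then ranged, at the high dose against vehicle, from 29 to 32 for Polygalae Radix, 17 to 21 for Aucklandiae Radix, 14 to 17 for Menthae Herba, 0 to 2 for Saposhnikoviae Radix, 1 to 5 for Saengmaek-san, 9 to 12 for Guibi-tang and 8 to 10 for Soyo-san. At the medium dose they ranged from 16 to 19, 1 to 3, 2 to 5, 2 to 8, 0 to 1, 1 to 1 and 0 to 0 in the same order, and at the low dose from 0 to 1, 0 to 5, 4 to 7, 1 to 4, 0 to 0, 0 to 0 and 0 to 4. For high against low they ranged from 30 to 31, 10 to 13, 7 to 8, 0 to 0, 0 to 0, 3 to 4 and 0 to 1, and between extracts from 32 to 33, 7 to 9 and 3 to 8. The HSF1 difference between Polygalae Radix and Aucklandiae Radix turned to −0.0059 within class 1 and, leaving out 1 library, ranged from −0.016 without Polygalae Radix high dose replicate 2 to 0.70 without replicate 3. No other named member changed direction under any alternative run. Of the 71 calls of named members, 14 were lost with only the libraries compared, 12 with no filter, 3 under each of DESeq2 and the class term, 1 with DESeq2's size factors and 0 with the replicate block. Over the fits without 1 library 321 calls held, 53 were lost and 1, that of HSF1 above, turned.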
